A study of Rattus norvegicus with 2 samples.

Results

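The collagen system of rat oligodendrocyte precursor cells (OPCs) was examined after Slit1 overexpression: the collagen chains themselves, the lysyl oxidases that cross-link them, and the prolyl and lysyl hydroxylases that modify them inside the cell. Its members were taken from the deposited gene table by symbol, as every collagen chain gene (Col, a number, a and a number), Lox and Loxl1 to Loxl4, P4ha1 to P4ha3 and Plod1 to Plod3. The rule found 55 of the 17455 genes in the table, 44 of them collagen chains and 11 enzymes. Of these 55, 35 reached a mean of 1 TPM (transcripts per kilobase scaled to a common total, a level per gene length) over both libraries, namely 24 collagen chains and all 11 enzymes. The other 20, all collagen chains, stayed under it.

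OPCs are the glial progenitors that become the myelin-forming cells of the central nervous system. The series compared wild-type rat OPCs transfected with a Slit1 construct, labelled Slit1, with wild-type OPCs transfected with vector, labelled control, and asks how Slit1 overexpression affects expression during OPC differentiation. Each group is 1 library, so no difference given here has a replicate check and no test of the conditions was possible. The labels give neither the age of the donor rats nor the species and promoter of the construct, nor how long after transfection the cells were harvested.

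Collagens are secreted proteins in which 3 chains wind into a triple helix. Prolyl 4-hydroxylases make that helix stable in the endoplasmic reticulum, lysyl hydroxylases prepare lysines for sugars and cross-links, and lysyl oxidases start the cross-links outside the cell. Fibrillar collagens build fibrils, fibril-associated collagens sit on their surface, and network collagens such as type IV form basement membranes. In the brain, collagen protein lies mainly around vessels and in the meninges, while glial cells express a set of collagen chain genes of their own.

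The libraries held 18998770 estimated counts in Slit1 and 18817462 in control. Slit1 itself measured 229.7 TPM in the Slit1 library, against 1.70 TPM in the control library, in the direction of the labels. Over all 13175 genes that reached the floor of 1 TPM, 3.72% were at least 1.5-fold higher in Slit1 and 4.83% lower. OPC markers were present in both libraries, and 3 of the 9 above the floor were at least 1.5-fold higher in Slit1. These were Sox10 (218 TPM in Slit1, 71.4 TPM in control), Gpr17 (263 TPM in Slit1, 109.8 TPM in control) and Vcan (40.05 TPM in Slit1, 22.7 TPM in control). Pdgfra measured 41.4 TPM in Slit1 and 40.25 TPM in control, and Cspg4 10.3 TPM in Slit1 and 10.1 TPM in control. Olig2 measured 178.1 TPM in Slit1 and 171.4 TPM in control, and Ptprz1 688.2 TPM in Slit1 and 913.6 TPM in control. The list of 12 differentiating oligodendrocyte markers summed to 4877 TPM in Slit1 and 1227 TPM in control, and all 10 that reached the floor were at least 1.5-fold higher. The 11 astrocyte markers summed to 10593 TPM in Slit1 and 9618 TPM in control. Gfap led them at 6130 TPM in Slit1 and 4694 TPM in control, which was 57.9% and 48.8% of the sum. Of the 10 that reached the floor, 0 were at least 1.5-fold higher and 2 lower. Their median difference of log2(TPM + 1), Slit1 minus control, was -0.10. The lower genes were Slc1a2 (94.1 TPM in Slit1, 215.4 TPM in control) and Gja1 (295.7 TPM in Slit1, 506.2 TPM in control).

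Markers of the fibroblasts and vessel cells that secrete much collagen were measured as lists. Of 19 fibroblast and meningeal markers, 17 were in the table, and they summed to 85.2 TPM in Slit1 and 91.2 TPM in control. Thy1, Prrx1, Fbln1 and Pdgfrb made up most of that sum, with Pdgfrb at 7.94 TPM in Slit1 and 7.06 TPM in control. Of the 5 above the floor, Mgp was at least 1.5-fold lower, at 2.81 TPM in Slit1 and 6.33 TPM in control. The fibril-binding proteoglycan gene Dcn measured 0.07 TPM in Slit1 and was listed at 0 in control. The 9 endothelial markers in the table summed to 7.89 TPM in Slit1 and 11.01 TPM in control. Egfl7 (3.29 TPM in Slit1, 4.20 TPM in control) and Flt1 (2.25 TPM in Slit1, 4.51 TPM in control) made up most of this sum, and Flt1 was at least 1.5-fold lower. Cdh5 measured 0.04 TPM in Slit1 and 0.06 TPM in control, and Cldn5 measured 0.08 TPM in Slit1 and was listed at 0 in control. The 10 pericyte and smooth muscle markers in the table summed to 114.4 TPM in Slit1 and 76.2 TPM in control. Tagln carried this difference, at 79.9 TPM in Slit1 and 36.2 TPM in control. Of the 5 that reached the floor, only Tagln was at least 1.5-fold higher and 0 were at least 1.5-fold lower. Besides Pdgfrb, the others were Notch3 (18.2 TPM in Slit1, 22.9 TPM in control), Myh11 (4.64 TPM in Slit1, 5.96 TPM in control) and Kcnj8 (2.02 TPM in Slit1, 2.01 TPM in control). Among Schwann cell genes, Sox2 measured 340.7 TPM in Slit1 and 394.4 TPM in control, and Pmp22 300.8 TPM in Slit1 and 377.9 TPM in control. Egr2 was at least 1.5-fold lower, at 4.69 TPM in Slit1 and 11.4 TPM in control, and Erbb3 at least 1.5-fold higher, at 5.59 TPM in Slit1 and 3.28 TPM in control. Neuron markers summed to 40.8 TPM in Slit1 and 50.1 TPM in control, and microglia markers to 5.19 TPM in Slit1 and 3.02 TPM in control. The part of shifting cell types in the results below was not tested, and in these bulk samples fewer cells of a type and less RNA per cell cannot be told apart.

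As a whole, the collagen system had nearly the same summed level in both libraries. The 55 members summed to 1447 TPM in Slit1 and 1455 TPM in control, and the 44 collagen chains alone to 1044 TPM in Slit1 and 1016 TPM in control. On the scale used for calls, the difference of log2(TPM + 1), Slit1 minus control, the 35 members that reached the floor had a median of -0.01, beside -0.05 for all 13175 genes that did. On that scale 4 members, Col11a2, Col16a1, Col14a1 and Col9a2, were at least 1.5-fold higher in the Slit1 library, which is 11.4% of the 35 beside 3.72% of all genes. A further 2 members, Lox and Col4a5, were at least 1.5-fold lower, 5.71% beside 4.83% of all genes. The remaining 29 lay between. With such small numbers and no replicate, the share on the lower side is near the background, and neither share is a test. At a limit of 2-fold, only Col11a2 remained among the higher members (1.24% of all genes were as high) and no member was as low (0.645% of all genes were). The added 1 TPM pulls in the difference of low genes. The balance of all genes depends on the scale: 490 were higher and 637 lower in TPM (43.5% of the called genes higher), against 583 and 490 (54.3%) with the median gene set to 0, where 4 members were higher and 1 lower.

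**Figure D1:**
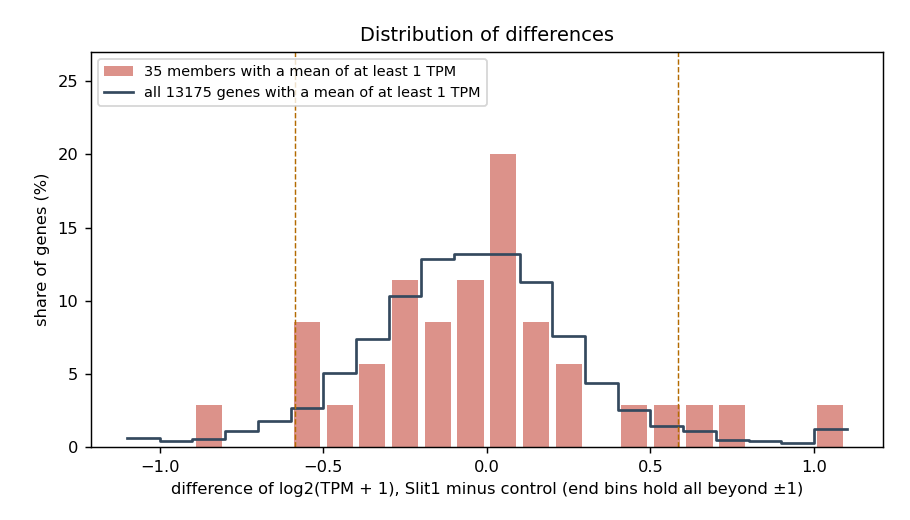
Share of genes (%) in bins of the difference of log2(TPM + 1), Slit1 minus control, for the 35 members (filled bars) and for all 13175 genes that reached the same floor of 1 TPM (line); dashed lines mark 1.5-fold. Most members lie inside the dashed lines with the bulk of all genes, and Col11a2 alone reaches the end bin on the right.

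The levels of the 35 members ran from 1.23 to 206.8 TPM in Slit1 and from 0.90 to 193.2 TPM in control, and 4 of them had a mean of at least 100 TPM. Col5a3 was the most abundant member, at 206.8 TPM in Slit1 and 193.2 TPM in control, rank 896 among the 13175 genes by mean level. Col9a3 followed at 165.5 TPM in Slit1 and 167.6 TPM in control. Col4a1 came next at 104.2 TPM in Slit1 and 110.6 TPM in control, with the lysyl hydroxylase gene Plod3 at 110.3 TPM in Slit1 and 102.3 TPM in control. The order of these neighbours differed between the libraries. Type I collagen, the chief collagen of connective tissue, was low. Col1a2 measured 9.94 TPM in Slit1 and 11.7 TPM in control, and Col1a1 measured 3.85 TPM in Slit1 and 3.82 TPM in control.

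**Figure D2:**
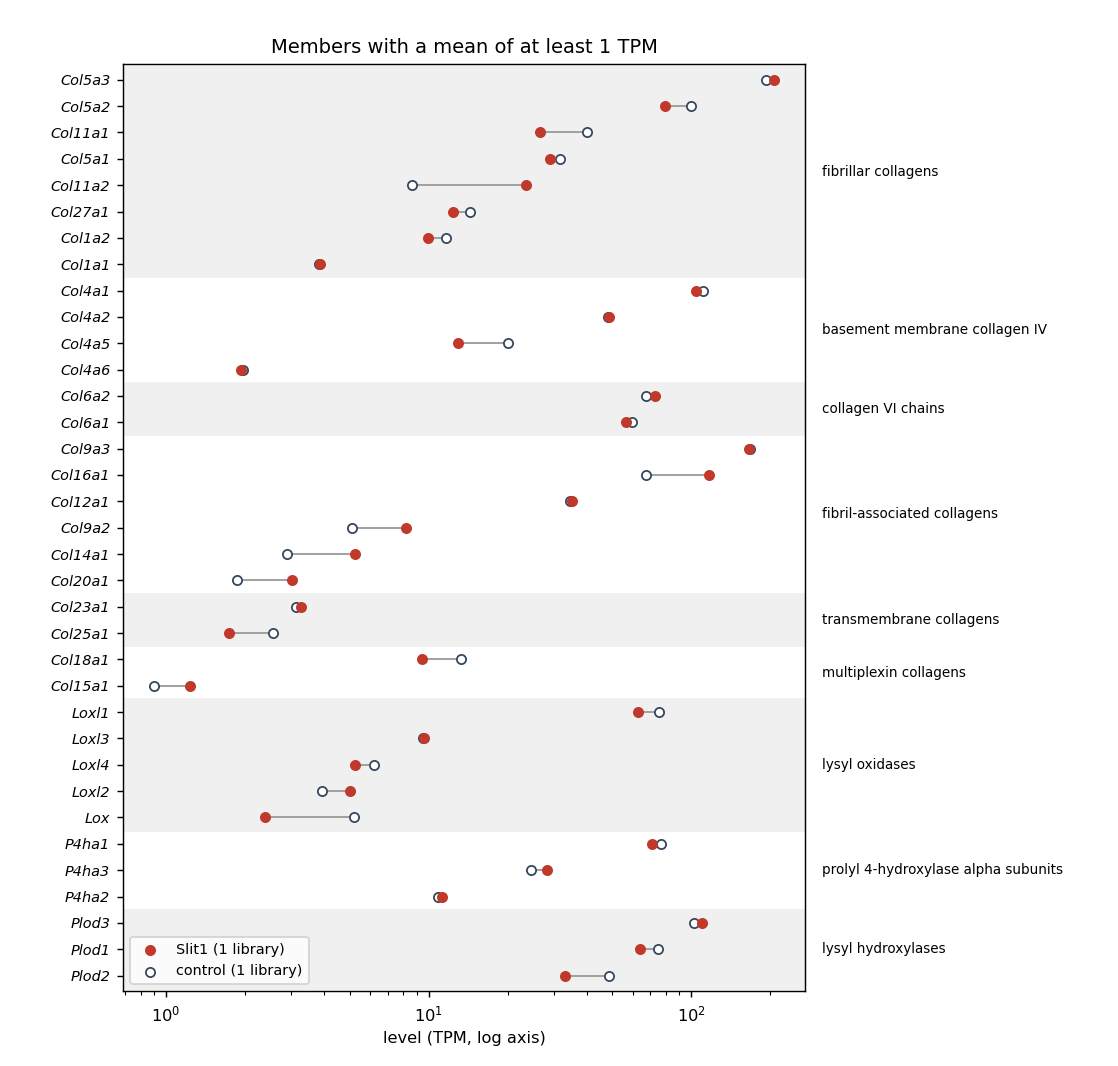
Level (TPM, log axis) of each of the 35 members that reached a mean of 1 TPM, grouped by class; filled points are the Slit1 library and open points the control library. The points of most genes nearly coincide, while Col11a2, Col16a1, Col9a2, Col14a1, Col20a1 and Col15a1 lie to the right in Slit1 and Lox, Col4a5, Col11a1, Col25a1, Plod2 and Col18a1 to the left.

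Among the fibrillar collagens the chains of types V and XI dominated, and the chains of type XI went opposite ways. These are minor fibrillar collagens that start fibrils and limit their width, and their chains can combine in mixed molecules. Col11a2 measured 23.5 TPM in Slit1, against 8.65 TPM in control (1174 estimated counts in Slit1, 423 in control), a TPM ratio of 2.72 with a 95% counting interval of 2.43 to 3.05. This was the highest ratio among the 35 members. Col11a1 measured 26.6 TPM in Slit1 and 40.2 TPM in control, a ratio of 0.660 (counting interval 0.621 to 0.702). Its log2(TPM + 1) difference of -0.58 lay just short of the limit for a call.

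The proportion of the type XI chains differed more than their sum. Col11a1 and Col11a2 together measured 50.1 TPM in Slit1 and 48.9 TPM in control. Col11a2 made up 46.9% of that sum in Slit1, against 17.7% in control. The TPM ratio of Col11a1 to Col11a2 was 1.13 in Slit1 and 4.65 in control. The remaining chain of cartilage type XI molecules comes from Col2a1, which had 5 estimated counts in Slit1 and 3 in control.

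The bases before the starts of both type XI genes are shown because these genes had the most opposed values of any chains of 1 collagen type. They are the 250 bases before each annotated start in the RefSeq promoter table (build GRCr8), read 5′ to 3′ on the gene's strand. Capitals mark GC boxes (GGGCGG or its reverse complement CCGCCC, searched on both strands), and each window holds 3 of them, 2 overlapping in Col11a2.
Col11a2, chr20:4817649-4817898, minus strand: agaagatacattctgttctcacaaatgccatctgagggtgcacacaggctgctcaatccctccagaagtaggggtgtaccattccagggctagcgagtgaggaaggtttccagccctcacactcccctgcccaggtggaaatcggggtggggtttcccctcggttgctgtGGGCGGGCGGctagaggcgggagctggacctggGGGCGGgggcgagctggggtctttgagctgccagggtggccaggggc
Col11a1, chr2:204508886-204509135, plus strand: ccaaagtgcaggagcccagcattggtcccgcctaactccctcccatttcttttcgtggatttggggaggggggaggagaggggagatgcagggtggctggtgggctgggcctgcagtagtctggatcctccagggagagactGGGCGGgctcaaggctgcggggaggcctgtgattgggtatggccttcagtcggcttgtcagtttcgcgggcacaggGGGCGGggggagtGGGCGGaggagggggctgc

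Across the table, 47 of the 55 members had a promoter entry, and 27 of the 35 that reached 1 TPM. A GC box was found in the 250-base window of 26 of those 47 members (55.3%) and in 30.5% of all 33469 promoters of every gene type. The TATA sequence TATAAA was found in 4 of the 47 (8.51%) and in 12.9% of all promoters. The sequence CCAAT was found in 13 (27.7%) beside 34.0% of all, and AACAAT, a core sequence bound by SOX factors, in 2 (4.26%) beside 10.3% of all; all were searched on both strands. Of the 27 windows of members above the floor, 19 held a GC box, 7 CCAAT, 1 TATAAA and 0 AACAAT. These matches describe the letters in the windows and locate no bound site. The set of all promoters also holds genes of other types than the members. No share was computed for protein-coding genes alone, so the members are set beside an unlike background.

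The type V chains differed less. Col5a3, whose chain is known from rat Schwann cells as a heparan sulfate-binding collagen, had a ratio of 1.07 (counting interval 1.04 to 1.10). Col5a2 measured 79.3 TPM in Slit1 and 99.8 TPM in control, a ratio of 0.794 (interval 0.763 to 0.827). Col5a1 measured 29.1 TPM in Slit1 and 31.8 TPM in control, a ratio of 0.915 (interval 0.858 to 0.975). Within the 5 chains of types V and XI, which summed to 365.2 TPM in Slit1 and 373.65 TPM in control, Col5a3 held 56.6% in Slit1 and 51.7% in control. Col5a2 held 21.7% in Slit1 and 26.7% in control.

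**Figure D3:**
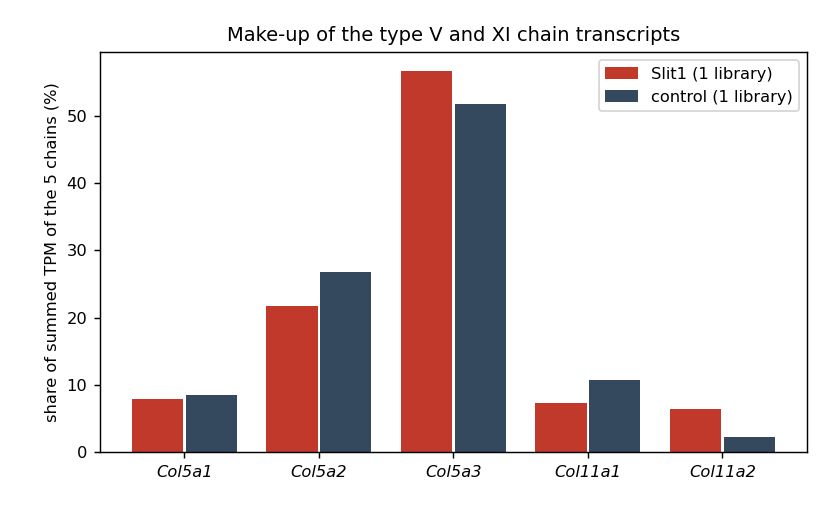
Share (%) of the summed TPM of the 5 type V and type XI chain genes held by each, with the Slit1 library left of the control library. Col11a2 takes 6.43% in Slit1 and 2.32% in control, Col11a1 takes 7.27% in Slit1 and 10.8% in control, and Col5a3 holds the greatest share in both.

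The other fibrillar chains that reached the floor were not called. Col27a1, a fibrillar collagen of cartilage, measured 12.4 TPM in Slit1 and 14.4 TPM in control, with a ratio of 0.864 (interval 0.777 to 0.962). Col1a2 had a ratio of 0.851 (interval 0.741 to 0.976) and Col1a1 a ratio of 1.01 (interval 0.822 to 1.24). Col1a2 was 2.58 times as abundant as Col1a1 in Slit1 and 3.06 times in control. In the RefSeq annotation Col1a1 overlaps Sgca, and with the handling of strand not given, reads of the overlap cannot be told apart. Col3a1, the partner of type I in soft tissue, had 14 estimated counts in Slit1 and 7 in control.

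Fibril-associated collagens supplied 3 of the 4 higher members. The authors' table holds 9 of them, and of the 6 that reached the floor 3 were at least 1.5-fold higher (3.72% of all genes were) and 0 lower (4.83% of all genes were), with a median log2 difference of 0.54 beside -0.05 for all genes. The number higher was 2 in CPM (counts scaled to library size) under each of 3 scalings, and 1 in FPKM or with a pseudocount of 5. Col9a2 was no longer called in CPM or in FPKM. In FPKM Col14a1 stood exactly at the limit, with a log2 difference of 0.585, and the FPKM count leaves it out through rounding in the calculation. The class summed to 336.1 TPM in Slit1 and 280.6 TPM in control, the greatest gain of any class, and Col16a1 supplied most of it.

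Col16a1, a fibril-associated collagen that also binds integrins, measured 117.4 TPM in Slit1 and 67.1 TPM in control (4416 estimated counts in Slit1, 2567 in control). Its ratio was 1.75 (counting interval 1.67 to 1.84), and it is the best counted of the called members. Its promoter window is shown for that reason, with the 2 GC boxes in capitals, from the same table and build.
Col16a1, chr5:147672846-147673095, plus strand: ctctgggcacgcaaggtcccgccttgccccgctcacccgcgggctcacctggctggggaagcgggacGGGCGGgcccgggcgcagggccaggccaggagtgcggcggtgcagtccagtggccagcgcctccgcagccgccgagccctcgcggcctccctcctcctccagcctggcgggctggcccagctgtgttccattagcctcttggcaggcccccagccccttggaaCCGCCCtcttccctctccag

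Col14a1, a fibril-associated collagen of type I fibrils, measured 5.24 TPM in Slit1 and 2.88 TPM in control, a ratio of 1.82 (interval 1.49 to 2.22, from 295 estimated counts in Slit1 and 155 in control). Col9a2, a type IX chain, measured 8.22 TPM in Slit1 and 5.11 TPM in control, a ratio of 1.61 (interval 1.28 to 2.03). Col20a1 measured 3.01 TPM in Slit1 and 1.86 TPM in control, a ratio of 1.62 (interval 1.27 to 2.06). Its log2(TPM + 1) difference of 0.49 was under the limit. Its estimated counts gave a ratio of 1.36 (164 in Slit1, 121 in control). In the RefSeq annotation Col20a1 overlaps Chrna4 (6.06 TPM in Slit1, 5.21 TPM in control). Of the called members, Col16a1 overlaps the long noncoding RNA gene LOC120102987 there, and Col9a2 overlaps LOC108351024, another such gene. Col14a1 overlaps the pseudogene Eif1-ps1, and Lox the pseudogene Rps3a-ps12. None of these noncoding genes and pseudogenes has a level here.

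The abundant members of this class did not share the difference. Col9a3 had a ratio of 0.988 (interval 0.944 to 1.03), and Col12a1, a close relative of Col14a1, measured 35.1 TPM in Slit1 and 34.7 TPM in control, a ratio of 1.01 (interval 0.960 to 1.07). The type IX molecule of cartilage holds all 3 type IX chains, yet here Col9a3 was 20.1 times as abundant as Col9a2 in Slit1 and 32.8 times in control. Col9a1 was just under the floor, at 1.02 TPM in Slit1 and 0.83 TPM in control.

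**Figure D4:**
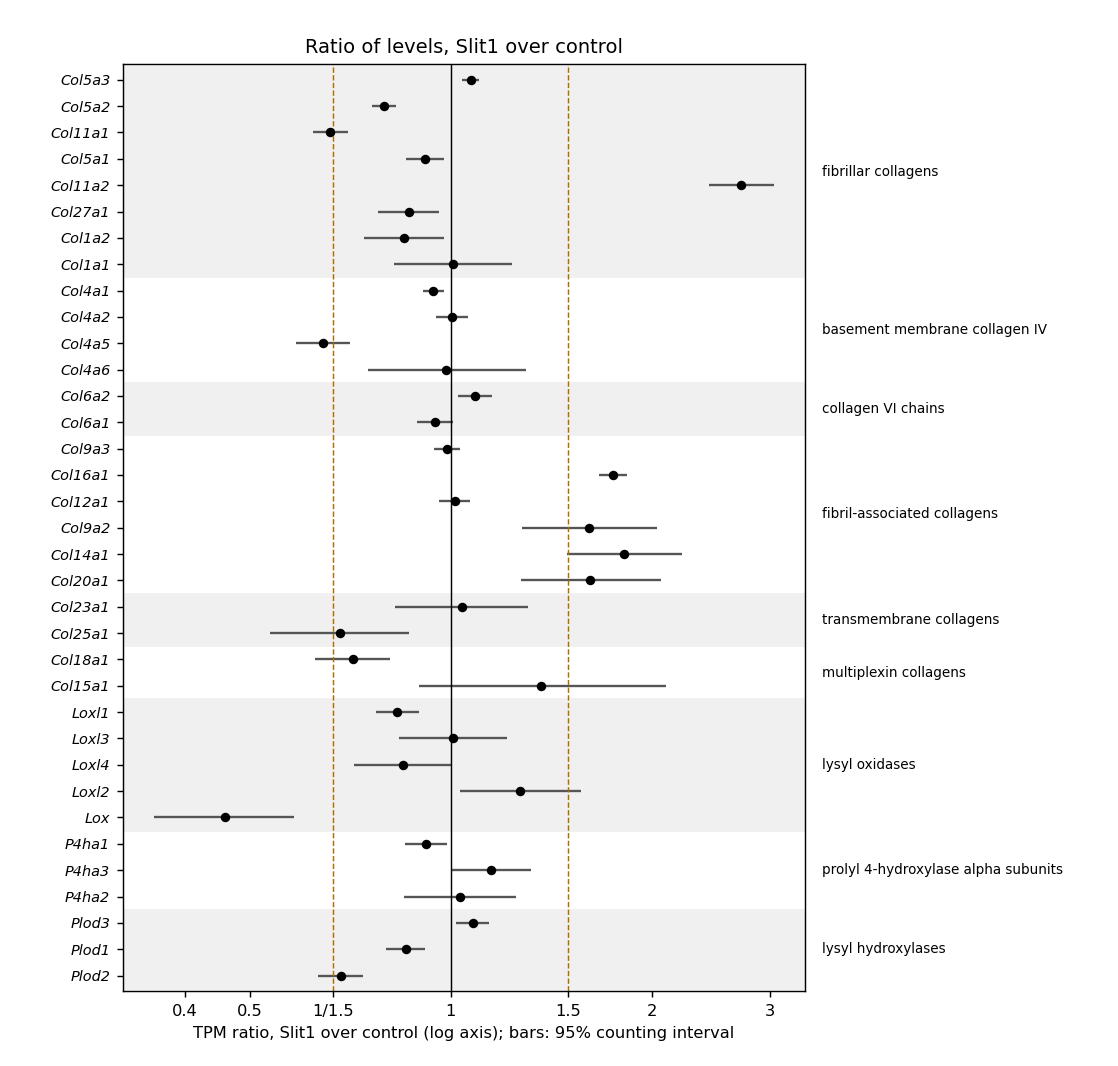
TPM ratio, Slit1 over control, of each of the 35 members (points, log axis) with its 95% counting interval (bars), grouped by class; the solid line marks equal levels and the dashed lines 1.5-fold in either direction. Only the intervals of Col11a2 and Col16a1 lie wholly above the upper dashed line and only that of Lox wholly below the lower one.

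Of the 35 ratios, 10 (28.6%) had a counting interval wholly above equality, beside 22.3% of all genes, and 14 (40%) wholly below it, beside 33.5% of all genes. The other 11 intervals included it, so the split of the members is near the background. A counting interval wholly beyond 1.5-fold was seen for 2 members above, Col11a2 and Col16a1 (1.97% of all genes), and for 1 below, Lox (1.91% of all genes). These intervals cover counting error in these libraries and leave out the spread between cultures. Equality was set in TPM, where the median log2 difference of all genes was -0.05. For members close to equality the ratio depends on the scale. Col4a1 had a ratio of 0.942 in TPM and 0.981 in estimated counts, and Plod3 1.08 in TPM and 1.12 in estimated counts.

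The genes of type IV collagen, the network of basement membranes, lie in head-to-head couples. Col4a1 had a ratio of 0.942 (interval 0.909 to 0.976). Col4a2 measured 48.5 TPM in Slit1 and 48.3 TPM in control, a ratio of 1.005 (interval 0.951 to 1.06). The TPM ratio of Col4a1 to Col4a2, whose products join in 1 molecule, was 2.15 in Slit1 and 2.29 in control, so the couple kept nearly the same proportion.

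The bases between the starts of Col4a1 and Col4a2 are printed because both genes are read outward from them. In the RefSeq table (GRCr8, plus strand) the annotated starts leave 76 bases between them, here in capitals, with 25 bases on each side in lower case, the first of them in Col4a2 and the last in Col4a1.
Col4a1-Col4a2, chr16:84885496-84885621: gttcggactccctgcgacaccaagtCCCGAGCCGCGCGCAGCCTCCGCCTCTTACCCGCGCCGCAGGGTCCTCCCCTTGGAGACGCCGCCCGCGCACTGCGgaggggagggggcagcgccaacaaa

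The X-linked couple Col4a5 and Col4a6, whose starts lie 1414 bases apart in the same table, differed within itself. Col4a5, the chain gene mutated in most cases of Alport syndrome in humans, measured 12.9 TPM in Slit1 and 20.02 TPM in control (755 estimated counts in Slit1, 1126 in control), a ratio of 0.644 (interval 0.587 to 0.707). Col4a6 measured 1.93 TPM in Slit1 and 1.96 TPM in control, a ratio of 0.985 (interval 0.753 to 1.29). The intervals of the couple do not overlap. In the RefSeq annotation Col4a6 overlaps the protein-coding gene LOC103690888, which has no level here. With the handling of strand not given, reads of that overlap cannot be told apart. Col4a5 was called lower in TPM, with a log2 difference of -0.60, but not after centring on the median gene or in any other unit. Col4a3 had 9.99 estimated counts in Slit1 and 11 in control, and Col4a4 had 0 in Slit1 and 1 in control.

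Type VI collagen, which forms beaded filaments next to cells, was represented by a couple of chains. Col6a2 measured 73.2 TPM in Slit1 and 67.3 TPM in control, a ratio of 1.09 (interval 1.02 to 1.15). Col6a1 measured 56.5 TPM in Slit1 and 59.8 TPM in control, a ratio of 0.946 (interval 0.890 to 1.01). Col6a3, the third chain of the usual type VI molecule, lay just under the floor at 1.10 TPM in Slit1 and 0.82 TPM in control, so Col6a1 was 51.4 times as abundant in Slit1 and 72.9 times in control. Col6a4, Col6a5 and Col6a6, which overlap the ribosomal protein gene Rpl29 in the RefSeq annotation, had at most 0.53 TPM in Slit1 and 0.67 TPM in control.

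Membrane-bound and basement membrane zone collagens were scarce. Col18a1, the source of the antiangiogenic fragment endostatin, measured 9.48 TPM in Slit1 and 13.3 TPM in control, a ratio of 0.713 (interval 0.627 to 0.810). Its relative Col15a1 was the member just inside the floor, at 1.23 TPM in Slit1 and 0.90 TPM in control, with an interval that included equality (0.895 to 2.10). Col25a1, a transmembrane collagen found in amyloid plaques in humans, measured 1.74 TPM in Slit1 and 2.55 TPM in control, a ratio of 0.682 (interval 0.537 to 0.865). The transmembrane collagen gene Col23a1 measured 3.26 TPM in Slit1 and 3.14 TPM in control. None of these 4 reached the limit for a call.

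Of the 20 chains under the floor, none exceeded 1.10 TPM in either library. At least 10 estimated counts in 1 library or the other were found for 9 of them. Besides those already named, Col22a1 had 27 estimated counts in Slit1 and 27.9 in control, and Col8a2 had 14.7 in Slit1 and 26.4 in control. Col7a1, the anchoring fibril collagen of skin, had 23.1 in Slit1 and 37 in control. Each of their counting intervals included equality. The other 11 had under 10 in both, among them Col8a1, Col10a1, Col13a1, Col17a1, Col19a1, Col24a1 and Col26a1. Col28a1 had 5.99 estimated counts in Slit1 and 0 in control, where a count of 0 allows up to 3 counts.

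The lysyl oxidases, which oxidize lysines to start cross-links in collagen and elastin, were led by Loxl1 and included the member with the lowest ratio. As a class they summed to 85.2 TPM in Slit1 and 100.6 TPM in control. Lox, the founding enzyme, measured 2.38 TPM in Slit1 and 5.19 TPM in control (104 estimated counts in Slit1, 218 in control). Its ratio was 0.459 (interval 0.360 to 0.582), or 2.18-fold lower. On the log2(TPM + 1) scale its difference was -0.87.

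The other lysyl oxidases differed less. Loxl1, needed for elastic fibres in mice, measured 63.0 TPM in Slit1 and 75.8 TPM in control, a ratio of 0.832 (interval 0.773 to 0.895), and held 73.9% of the class in Slit1 and 75.3% in control. Loxl2, which cross-links type IV collagen, measured 5.01 TPM in Slit1 and 3.94 TPM in control, a ratio of 1.27 (interval 1.03 to 1.57). Loxl4 measured 5.24 TPM in Slit1 and 6.18 TPM in control, with a ratio of 0.848 whose interval (0.716 to 1.005) included equality. Loxl3, which overlaps Htra2 in the RefSeq annotation, measured 9.60 TPM in Slit1 and 9.53 TPM in control. Members of 1 enzyme family therefore lay on both sides of equality.

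The prolyl 4-hydroxylase subunits differed little. P4ha1, the main catalytic subunit, measured 70.7 TPM in Slit1 and 76.9 TPM in control, a ratio of 0.918 (interval 0.854 to 0.987). P4ha3 measured 28.2 TPM in Slit1 and 24.6 TPM in control, a ratio of 1.15 (interval 1.002 to 1.32). P4ha2 measured 11.25 TPM in Slit1 and 10.9 TPM in control, with an interval of 0.850 to 1.25. None of the 3 was called.

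The lysyl hydroxylases stood on both sides of equality. Plod2, which hydroxylates the ends of collagen chains where cross-links form, measured 33.2 TPM in Slit1 and 48.6 TPM in control (1075 estimated counts in Slit1, 1505 in control), a ratio of 0.684 (interval 0.632 to 0.740). With a log2 difference of -0.53 it was not called. Plod1 measured 64.0 TPM in Slit1 and 74.8 TPM in control, a ratio of 0.856 (interval 0.800 to 0.915). Plod3, which also adds glucose to the galactose on hydroxylysine, had a ratio of 1.08 (interval 1.02 to 1.14). It overlaps Znhit1 in the RefSeq annotation. Plod3 held 53.1% of the class in Slit1 and 45.3% in control.

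**Figure D5:**
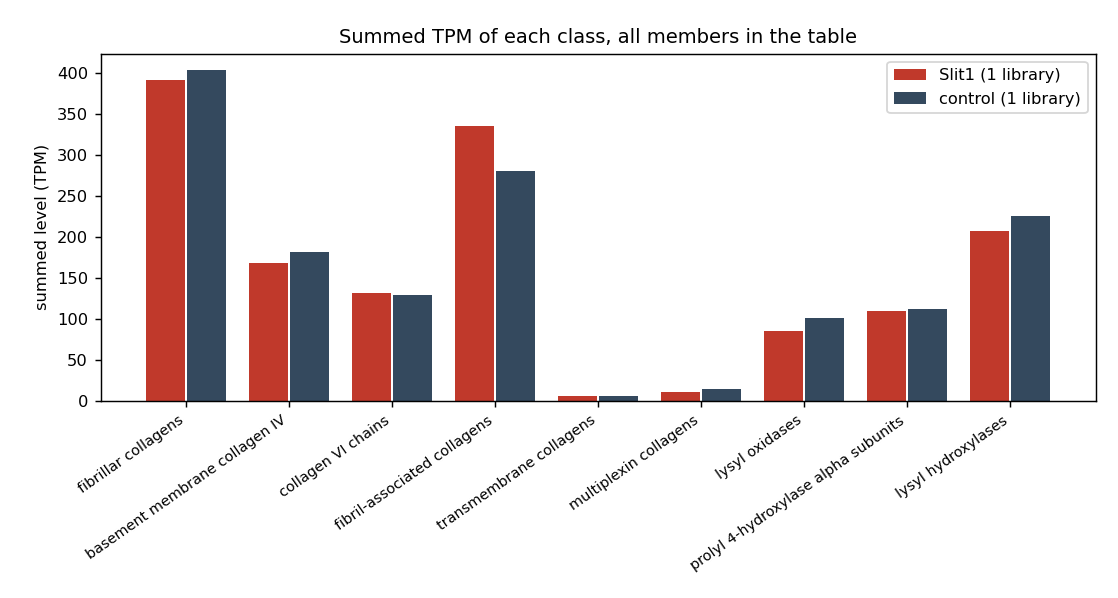
Summed level (TPM) of the members of each class that holds a gene above the floor of 1 TPM, with the Slit1 library left of the control library. The fibril-associated collagens reach 336.1 TPM in Slit1 and 280.6 TPM in control, and every other class differs by less in absolute terms.

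The rest of the collagen pathway was read from 5 further lists. Over all genes 3.72% were at least 1.5-fold higher and 4.83% lower, with a median log2 difference of -0.05. These lists are short, and the counts of called genes below are not read as results about them. Of 22 genes of collagen folding and secretion that reached the floor, 1 was at least 1.5-fold higher and 1 lower, with a median log2 difference of -0.07. The higher gene was Creb3l1, a transcription factor of bone collagen synthesis in mice, at 34.7 TPM in Slit1 and 21.45 TPM in control (ratio 1.62, interval 1.45 to 1.82). The lower gene was Fkbp14, a prolyl isomerase of the endoplasmic reticulum, at 22.6 TPM in Slit1 and 35.4 TPM in control (ratio 0.639, interval 0.554 to 0.733). Its estimated counts gave a ratio of 0.725, and it was not called with the median gene set to 0, in CPM or in FPKM. Ppib, cyclophilin B, measured 774 TPM in Slit1 and 579.5 TPM in control, and Sec24d, a coat protein of export vesicles, measured 28.3 TPM in Slit1 and 35.9 TPM in control.

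None of the 7 procollagen processing genes that reached the floor was called in TPM. Their median log2 difference was 0.22, beside -0.05 for all genes. Bmp1, the proteinase that removes the carboxyl propeptide and activates Lox, measured 266.8 TPM in Slit1 and 214.45 TPM in control (ratio 1.24, interval 1.20 to 1.29). Sfrp2 measured 17.5 TPM in Slit1 and 11.7 TPM in control. Pcolce, an enhancer of propeptide removal, measured 4.95 TPM in Slit1 and 3.44 TPM in control, and Adamts3, an amino-propeptidase, 5.93 TPM in Slit1 and 4.97 TPM in control. The interval of Pcolce included equality (0.968 to 2.16). Sfrp2 was called higher, with a log2 difference of 0.59, once the median gene was set to 0 or with edgeR TMM or DESeq2 factors.

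Among the matrix proteins that bind collagen, 2 of 15 that reached the floor were at least 1.5-fold higher (3.72% of all genes were). The number lower was 0 (4.83% of all genes were), and the median log2 difference was 0.02, beside -0.05 for all genes. Bgn, a small proteoglycan, measured 79.1 TPM in Slit1 and 48.6 TPM in control (ratio 1.63, interval 1.503 to 1.76). Nid2, which links laminin to type IV collagen, measured 30.4 TPM in Slit1 and 19.6 TPM in control (ratio 1.55, interval 1.42 to 1.70). Thbs1 measured 1.71 TPM in Slit1 and 2.92 TPM in control. It was called lower in CPM, and in TPM with a pseudocount of 0.1, but not in TPM with the added 1 TPM. Fbln5, an elastic fibre protein, measured 9.55 TPM in Slit1 and 13.3 TPM in control.

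The 9 collagen receptors that reached the floor held no called gene. Their median log2 difference was -0.13, beside -0.05 for all genes. Cd44 measured 409.4 TPM in Slit1 and 556.3 TPM in control (ratio 0.736, interval 0.720 to 0.752). Itga2, an integrin subunit that binds collagen, measured 1.54 TPM in Slit1 and 2.30 TPM in control. Ddr2, a receptor kinase for fibrillar collagen, measured 15.6 TPM in Slit1 and 17.97 TPM in control, and Lair1, an inhibitory immune receptor for collagen, measured 2.05 TPM in Slit1 and 2.35 TPM in control.

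Of 12 genes of collagen uptake and degradation that reached the floor, 0 were at least 1.5-fold higher (3.72% of all genes were). The number lower was 1 (4.83% of all genes were), and the median log2 difference was -0.11, beside -0.05 for all genes. The lower gene was Mmp14, a membrane-bound collagenase, at 134.2 TPM in Slit1 and 203.1 TPM in control (ratio 0.661, interval 0.630 to 0.693). Its estimated counts gave a ratio of 0.688, and it was not called after centring on the median gene, in CPM or in FPKM. Timp3, a matrix-bound inhibitor, measured 55.6 TPM in Slit1 and 75.9 TPM in control. Pepd, which recycles proline from collagen, measured 148.4 TPM in Slit1 and 122 TPM in control, and Mmp16, another membrane-bound proteinase, measured 13.9 TPM in Slit1 and 16.85 TPM in control.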

How the data were processed

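RNA from 2 rat OPC libraries, 1 labelled Slit1 and 1 labelled control, was analysed from 1 deposited table. Per the file headers it holds FPKM, TPM and read counts for each gene and library. TPM as deposited sums to the same total in each library, a scaling made by the authors, and FPKM was scaled by the authors per kilobase and depth. The read counts as deposited by the authors are estimated counts, assigned per gene and not whole; here they were rounded for the counting intervals and size factors. The submitters' processing notes name the build mRatBN7.2; for the aligner, counter, annotation and use of strand, nothing is given in the sources used here.

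Differences were taken as log2(TPM + 1) in Slit1 minus control over the 13175 genes whose mean reached 1 TPM, and a gene was called at 1.5-fold. Each TPM ratio has an exact Clopper-Pearson 95% interval for a ratio of Poisson counts, which covers counting error only. With 1 library per group no p-value was computed. The calls and intervals were run on simulated Poisson counts with planted differences. Those counts hold no spread between cultures and use the same TPM per count in both libraries. They check the calculation only. The genes named are every member with a mean of at least 1 TPM, scarcer members with at least 10 counts, and up to 4 genes of each further list with the largest absolute difference; a few others, such as marker genes and the scarcest chains, were named after their values were seen. Members and lists were chosen with earlier results of these data known. Gene IDs matched RefSeq (GRCr8) for all 55 members; that table served for names, overlaps and promoter sequences only. Alternatives were pseudocounts of 0.1 and 5, other floors, a 2-fold limit, CPM, edgeR 4.0.16 TMM factors, DESeq2 1.42.0 size factors, and FPKM, run in R 4.3.3 and Python 3.11.15 with scipy 1.17.1. The table holds 0 value columns of other samples. The sum of the Schwann cell list is not reported here.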

Additional observations from a re-analysis of the deposited data

How the results depend on the processing

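In TPM 4 members were called higher; the number was 2 with a pseudocount of 5, 2 in the authors' FPKM, 2 with counting intervals wholly beyond 1.5-fold and 1 at a limit of 2-fold, and 3 to 5 under the other alternatives. The number lower was 2; it was 0 with a pseudocount of 5 or at a limit of 2-fold, 1 with a floor of 5 TPM, with the median gene set to 0, in CPM, with edgeR TMM factors, with DESeq2 size factors, in FPKM and with counting intervals wholly beyond 1.5-fold, and 3 with a pseudocount of 0.1. A pseudocount of 5 shrinks low genes by construction. Col11a2 and Col16a1 were called in all 7 alternatives of unit, scale or pseudocount, Lox in 6, Col14a1 in 5, Col9a2 in 2 and Col4a5 in 1. The FPKM count of 2 and the 5 for Col14a1 leave out Col14a1 in FPKM, where it stood exactly at the limit. Why calls were lost in other units was not tested. Of the 35 members, 32 kept 1 sign of the difference under those 7, and Col9a3, Col4a6 and Loxl3, all near 0, did not. The median of the members ran from -0.08 (floor of 5 TPM) to 0.03 (median gene set to 0). No paired analysis was possible because each group holds 1 library, and for the same reason no replicate could be left out. Depth limits the chains under 1 TPM, where a few counts decide the ratio.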

Other observations

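Between the libraries, the TPM given per estimated count moved by a factor of 0.961 at the median of all genes, Slit1 over control, and by nearly the same factor for most members. It moved by 1.19 for Col20a1, 1.07 for Col9a2, 1.05 for Col5a3 and 1.02 for Col16a1. For those genes the TPM ratio therefore exceeded the ratio of estimated counts, which was 1.36 for Col20a1, 1.503 for Col9a2, 1.02 for Col5a3 and 1.72 for Col16a1.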
